A study of Rattus norvegicus with 12 samples.

Results

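The genes described here are 10 adipocyte genes, taken by symbol from the 30045 gene symbols counted in cultured fetal rat metatarsal bones: the 4 transcription factor genes Pparg, Cebpa, Cebpb and Cebpd, and the 6 late adipocyte genes Adipoq, Fabp4, Gpd1, Plin1, Lpl and Cidec. Metatarsals, the long bones of the foot, were taken from Sprague Dawley rat fetuses at embryonic day 19 and cultured for 72 h in 4 conditions: 1 µM dexamethasone together with 10 mM LiCl, 1 µM dexamethasone alone, 10 mM LiCl alone, and the untreated control. All groups had the same DMEM/F12 medium with albumin, gentamycin, β-glycerophosphate and ascorbic acid, and the LiCl and control groups also received ethanol, the solvent of dexamethasone. Each condition had 3 RNA libraries, and each library was a pool of about 20 bones, so that a value is the average over many bones and over every cell type in them.

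Adipocytes arise from mesenchymal cells through a cascade of transcription factors. CEBPB and CEBPD come first and are early targets of glucocorticoid and cyclic AMP signals, and they turn on PPARG and CEBPA, which then maintain each other and switch on the genes of the fat cell itself. Glucocorticoids are part of the standard mixture that drives precursor cells into adipocytes in culture, while Wnt/β-catenin signalling, which lithium activates by inhibiting glycogen synthase kinase 3, is a known brake on this cascade. The late genes serve hormone secretion (Adipoq), fatty acid uptake and carriage (Lpl, Fabp4), glycerol supply for triglyceride (Gpd1) and the coat of the lipid droplet (Plin1, Cidec).

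Among the genes described here, the early factors and most late genes moved in opposite directions with dexamethasone. In those pools, Cebpb and Cebpd were 1.64-fold and 3.25-fold the control level, while Adipoq, Gpd1, Plin1 and Lpl were lower than in control in all pools. Adipoq and Gpd1 had enough counts for testing only through control libraries, so a lower value elsewhere was built in. Of 18 further late adipocyte genes tested, 3 were higher and 1 lower with dexamethasone (median log2 fold change -0.01). With LiCl, all 5 late genes with usable counts were lower than in control, and so was Cebpb. Fabp4 was the late gene that stood apart: LiCl pools lay below all others, and pools with dexamethasone, with or without LiCl, lay within or above the control range.

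The libraries held 9055581 to 21953446 counts. Values are given as CPM, counts per 1000000 library counts after TMM scaling of the library totals, and are compared between samples of 1 gene and not between genes, since they are not corrected for gene length. Labels were checked with targets of the treatments: all 7 tested glucocorticoid target genes were higher with dexamethasone than in control (Fkbp5, a chaperone of the glucocorticoid receptor, 238 ± 25.2 CPM in dexamethasone pools and 32.8 ± 1.30 CPM in control pools, SD, n = 3 each). Of 7 tested Wnt targets, 6 were higher with LiCl than in control (Nkd2, a feedback inhibitor of Wnt signalling, 54.4 ± 2.07 CPM in LiCl pools and 19.1 ± 1.02 CPM in control pools, SD, n = 3 each). The cartilage collagen gene Col2a1 stood at 24541 to 53640 CPM in every pool. Among defining fat markers, Ucp1 of brown fat had 0 counts in all 12 libraries, which allows up to 3 counts over them, and the hormone gene Lep had 4 counts in control pools and 0 in the other 9 libraries. The share of adipocyte transcripts in the RNA was not measured.

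Genes were tested where at least 2 of the 12 libraries had 60 counts, which 12602 genes met, with edgeR's quasi-likelihood test and Benjamini-Hochberg adjustment over all of them. A gene was called at an adjusted p under 0.05. Of the 10 genes, 7 passed this filter. Adipoq and Gpd1 passed only through control libraries, in which they were high, so a lower value elsewhere was built into their selection. Pparg, Plin1 and Cidec did not pass: the highest counts were 83 and 36 for Pparg, 93 and 56 for Plin1, and 6 and 5 for Cidec. These 3 are given from a fit with no filter over the 23569 genes with any count. For calls on them the adjusted p under edgeR's own lighter filter is given as well, because the unfiltered fit estimates the spread more tightly.

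RefSeq windows of 250 bases upstream of the start site were available for 6 of the 10 genes (Pparg, with 2 start sites, Cebpa, Cebpb, Adipoq, Plin1 and Cidec) in the rat build GRCr8. Those of Adipoq and Plin1, late genes that fell with both treatments, and of Cebpb, which moved up with dexamethasone and down with LiCl, are printed 5′ to 3′ on the strand of the gene. Capitals mark matches on either strand to the C/EBP motif TTGCNNAA and to the CCAAT box. The sequences are those of Adipoq at chr11:91240170-91240419, minus strand, of Plin1 at chr1:143086149-143086398, minus strand, and of Cebpb at chr3:176816755-176817004, plus strand.
Adipoq: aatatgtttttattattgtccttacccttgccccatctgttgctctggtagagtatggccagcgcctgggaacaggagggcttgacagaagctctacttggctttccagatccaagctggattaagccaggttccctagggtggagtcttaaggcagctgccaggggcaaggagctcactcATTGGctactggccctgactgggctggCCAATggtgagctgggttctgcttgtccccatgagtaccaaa
Plin1: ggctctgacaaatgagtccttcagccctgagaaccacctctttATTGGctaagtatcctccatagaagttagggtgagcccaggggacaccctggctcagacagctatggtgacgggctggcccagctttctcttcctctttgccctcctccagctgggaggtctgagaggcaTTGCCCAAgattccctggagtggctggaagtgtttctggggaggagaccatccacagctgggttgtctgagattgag
Cebpb: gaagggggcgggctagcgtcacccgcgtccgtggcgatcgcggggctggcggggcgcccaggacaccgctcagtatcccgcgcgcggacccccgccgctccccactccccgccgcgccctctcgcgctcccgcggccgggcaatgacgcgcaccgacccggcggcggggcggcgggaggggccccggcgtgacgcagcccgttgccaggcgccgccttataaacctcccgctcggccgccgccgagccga
The C/EBP motif lay in the Plin1 window at bases -77 to -70 from the start site, in the Cidec window at -209 to -202 and in the second Pparg window at -174 to -167, and 9.22% of all 33469 rat windows held it. The CCAAT box matched in the Adipoq window at -69 to -65 on the opposite strand and at -42 to -38, and once each in the Plin1 and second Pparg windows, against 34.0% of all windows. The glucocorticoid receptor motif (GNACA, then NNN, then TGTNC), the PPARG direct repeat (AGGNCA, then N, then AGGNCA again) and the TCF motif CTTTGAT, all searched on both strands, matched in none of the 7 windows, and in 0.373%, 0.368% and 3.15% of all windows.

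Cebpd, an early C/EBP factor, had the largest increase with dexamethasone among the 4 factor genes. It stood at 10.3, 12.7 and 10.7 CPM with dexamethasone + LiCl, at 15.7, 15.3 and 14.2 CPM with dexamethasone, at 2.93, 2.78 and 3.78 CPM with LiCl and at 5.72, 5.76 and 2.67 CPM in control. Every pool with dexamethasone, with or without LiCl, lay above every pool without it, while the LiCl and control pools overlapped. The log2 fold change was 1.70 (SE 0.23, edgeR adjusted p = 1.07e-04) for dexamethasone against control, 1.82 (SE 0.24, edgeR adjusted p = 1.16e-04) for dexamethasone + LiCl against LiCl and 1.27 (SE 0.23, edgeR adjusted p = 8.46e-04) for dexamethasone + LiCl against control. The change with LiCl alone did not pass (-0.54, SE 0.25, edgeR adjusted p = 0.177), and the third control pool decided this, since without it the value was -0.85 with an edgeR adjusted p of 0.00982.

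Cebpb, the partner of Cebpd at the start of the cascade, rose with dexamethasone and fell with LiCl. It stood at 11.9, 13.0 and 12.4 CPM with dexamethasone + LiCl, at 22.6, 14.4 and 21.5 CPM with dexamethasone, at 5.86, 7.29 and 5.91 CPM with LiCl and at 12.1, 13.4 and 10.4 CPM in control. The dexamethasone pools lay above control and the LiCl pools below it, and the pools that received both lay among the control pools. As a log2 fold change this was 0.71 (SE 0.16, edgeR adjusted p = 0.00842) for dexamethasone against control, -0.90 (SE 0.17, edgeR adjusted p = 0.00298) for LiCl against control, 0.96 (SE 0.17, edgeR adjusted p = 0.00192) for dexamethasone + LiCl against LiCl and -0.64 (SE 0.16, edgeR adjusted p = 0.0244) for dexamethasone + LiCl against dexamethasone. Against control, dexamethasone + LiCl gave 0.07 (95% interval -0.28 to 0.42, edgeR adjusted p = 0.811). The rise with dexamethasone was no longer called without the first dexamethasone pool (edgeR adjusted p = 0.0559), and the difference between the dexamethasone groups was lost in 5 of the 12 fits that left out 1 pool, those without any of the pools with both agents or without dexamethasone pool 1 or 3 (edgeR adjusted p 0.0568 to 0.114).

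The later factors did not rise with dexamethasone. Cebpa, which holds the adipocyte state together with Pparg, stood at 3.61, 5.02 and 4.61 CPM with dexamethasone + LiCl, at 5.38, 4.03 and 3.81 CPM with dexamethasone, at 5.50, 4.72 and 4.02 CPM with LiCl and at 6.93, 6.41 and 4.94 CPM in control. The highest pools were controls but the ranges overlapped, and no comparison passed the test (log2 fold change -0.47, 95% interval -0.91 to -0.02, edgeR adjusted p = 0.191 for dexamethasone against control, and -0.37, interval -0.79 to 0.06, edgeR adjusted p = 0.258 for LiCl against control). Pparg, the nuclear receptor without which fat cells do not form, stood at 1.64, 1.73 and 1.99 CPM with dexamethasone + LiCl, at 2.90, 2.01 and 2.02 CPM with dexamethasone, at 1.64, 1.78 and 0.969 CPM with LiCl and at 3.74, 2.60 and 1.81 CPM in control. All LiCl pools lay below all control pools, the third control pool by a small margin. Its log2 fold change was -0.92 (SE 0.30) for LiCl against control, with an adjusted p of 0.0428 in the unfiltered edgeR fit and 0.0721 under edgeR's own filter, and the unfiltered fit gave -0.58 (adjusted p = 0.406) without the first control pool and -0.69 (adjusted p = 0.279) without the third LiCl pool. Dexamethasone against control gave -0.26 (95% interval -0.88 to 0.35, unfiltered edgeR adjusted p = 0.744).

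**Figure D1:**
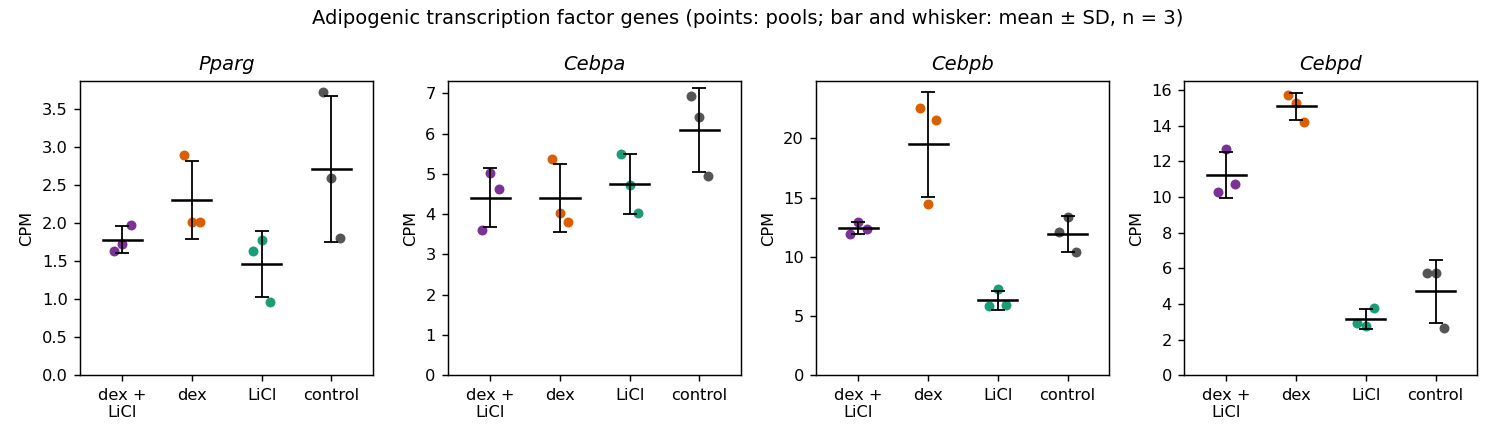
CPM of the 4 factor genes in each of 12 pools (y axis, linear from 0), by condition (x axis), points being pools and the bar and whisker the mean ± SD of 3. Cebpd is high in all 6 dexamethasone-treated pools and Cebpb is lowest in the 3 LiCl pools (5.86 to 7.29 CPM), while the groups overlap for Cebpa.

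Adipoq, the hormone gene made almost only by adipocytes, was scarce in every treated pool. It had 0, 1 and 0 counts with dexamethasone + LiCl, 1, 14 and 4 counts with dexamethasone, 1, 0 and 0 counts with LiCl and 111, 74 and 48 counts in control, and the last group corresponds to 5.00, 6.87 and 2.42 CPM. No treated pool reached the lowest control pool, and the highest of the 9 treated pools was a dexamethasone pool at 1.18 CPM. Dexamethasone against control gave a log2 fold change of -2.89 (SE 0.53, edgeR adjusted p = 0.00162), and -4.06 (edgeR adjusted p = 0.00102) without the second dexamethasone pool. With LiCl, 1 count over 3 pools against 233 in control made Adipoq 237-fold lower relative to scaled library totals (exact 95% counting interval 42.1 to 9394, edgeR adjusted p = 3.40e-05). With dexamethasone + LiCl, 1 count made it 164-fold lower than control (interval 29.2 to 6513, edgeR adjusted p = 2.76e-05). The intervals cover counting error only. Since Adipoq passed the count filter through control libraries alone, neither they nor the adjusted p values against control are free of that selection.

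Between the dexamethasone groups, the 1 Adipoq count with both agents against 19 with dexamethasone alone was a 23.2-fold difference (exact 95% counting interval 3.69 to 964). It missed the threshold in the edgeR fit (adjusted p = 0.0705) and passed it with the replicate number as a block (edgeR adjusted p = 0.0245) and with DESeq2 (adjusted p = 0.0158), and also in edgeR fits without the first dexamethasone pool (adjusted p = 0.0458) or the third control pool (adjusted p = 0.0406). Of the 19 counts, 14 came from the second dexamethasone pool.

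Gpd1, which makes the glycerol phosphate used for triglyceride, followed Adipoq. It stood at 0.983, 0.365 and 0.526 CPM with dexamethasone + LiCl, at 1.14, 1.93 and 1.46 CPM with dexamethasone, at 0.643, 0.262 and 0.533 CPM with LiCl and at 10.7, 5.94 and 5.44 CPM in control. Every treated pool lay below every control pool, and every dexamethasone pool lay above every pool with LiCl. On the log2 scale the fold change was -2.28 (SE 0.34, edgeR adjusted p = 2.64e-04) for dexamethasone, -3.97 (SE 0.37, edgeR adjusted p = 8.55e-06) for LiCl and -3.62 (SE 0.38, edgeR adjusted p = 6.09e-06) for both agents, each against control. Gpd1 too passed the count filter through control libraries alone, so these p values are not free of that selection. Dexamethasone + LiCl against dexamethasone did not pass (-1.35, SE 0.49, edgeR adjusted p = 0.102).

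Plin1, the coat protein that guards the lipid droplet from lipases, was lower in all treated pools as well but kept a difference between the 2 groups with LiCl. It stood at 0.983, 0.365 and 0.642 CPM with dexamethasone + LiCl, at 0.414, 0.839 and 1.34 CPM with dexamethasone, at 0.286, 0.0524 and 0.0969 CPM with LiCl and at 4.19, 2.79 and 2.82 CPM in control. The LiCl pools held 7 counts in all, and each lay below every other pool. The log2 fold change was -1.95 (SE 0.39, unfiltered edgeR adjusted p = 1.15e-04, edgeR's own filter 0.00391) for dexamethasone against control and -4.57 (SE 0.48, unfiltered edgeR adjusted p = 4.01e-12, own filter 2.17e-05) for LiCl against control. For dexamethasone + LiCl against control it was -2.34 (SE 0.39, unfiltered edgeR adjusted p = 2.46e-06, own filter 5.40e-04). Dexamethasone + LiCl exceeded LiCl by 2.23 (SE 0.62, unfiltered edgeR adjusted p = 0.0144, own filter 0.0482), a call that was lost without the first pool with both agents or without LiCl pool 2 or 3 (edgeR adjusted p 0.0669 to 0.0938) and after thinning all libraries to the smallest (edgeR adjusted p = 0.275). LiCl pool 1 held 4 of the 7 counts, and without it the values were -5.32 for LiCl against control and 2.96 for dexamethasone + LiCl against LiCl.

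Fabp4, the fatty acid carrier of fat cells that capillary endothelium and macrophages also make, had another order. It stood at 23.2, 33.3 and 21.7 CPM with dexamethasone + LiCl, at 30.2, 41.5 and 24.1 CPM with dexamethasone, at 2.86, 5.61 and 3.73 CPM with LiCl and at 22.6, 21.9 and 12.8 CPM in control. All LiCl pools lay below all others, all dexamethasone pools lay above control, and the pools with both agents overlapped both dexamethasone and control. The log2 fold change was -2.20 (SE 0.28, edgeR adjusted p = 1.63e-04) for LiCl against control and 2.65 (SE 0.28, edgeR adjusted p = 1.47e-05), or 6.28-fold, for dexamethasone + LiCl against LiCl. Dexamethasone against control gave 0.76 (SE 0.24) and missed the threshold in the edgeR fit (adjusted p = 0.0598). It passed with the replicate block (edgeR adjusted p = 0.00298) and by DESeq2 (adjusted p = 0.0300). It also passed in edgeR fits without the third dexamethasone pool (adjusted p = 0.0330) or the second pool with both agents (adjusted p = 0.0493). Dexamethasone + LiCl against control gave 0.45 (SE 0.24, edgeR adjusted p = 0.207, and 0.0325 with the replicate block).

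Lpl, the lipase that frees fatty acids from lipoproteins and is made by many cell types, fell by a similar small amount in each treatment. It stood at 13.9, 13.0 and 9.81 CPM with dexamethasone + LiCl, at 13.5, 11.2 and 13.2 CPM with dexamethasone, at 15.9, 12.8 and 14.4 CPM with LiCl and at 23.8, 18.4 and 22.6 CPM in control. No treated pool reached a control pool, and the treated groups overlapped. The log2 fold change was -0.79 (SE 0.15, edgeR adjusted p = 0.00196) for dexamethasone, -0.60 (SE 0.14, edgeR adjusted p = 0.0118) for LiCl and -0.85 (SE 0.14, edgeR adjusted p = 5.24e-04) for both, each against control. The LiCl call was lost without the second LiCl pool (edgeR adjusted p = 0.0606) or the first control pool (edgeR adjusted p = 0.0514). Cidec, which enlarges lipid droplets, had 5, 5 and 6 counts with dexamethasone + LiCl, 2, 1 and 1 with dexamethasone, 1, 1 and 2 with LiCl and 5, 2 and 4 in control. In CPM, all pools with both agents (0.350 to 0.546) lay above all others (at most 0.225), and all LiCl pools lay below control. No comparison of Cidec passed the test at this depth. Dexamethasone + LiCl against LiCl gave 2.43 (SE 0.91, unfiltered edgeR adjusted p = 0.130).

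**Figure D2:**
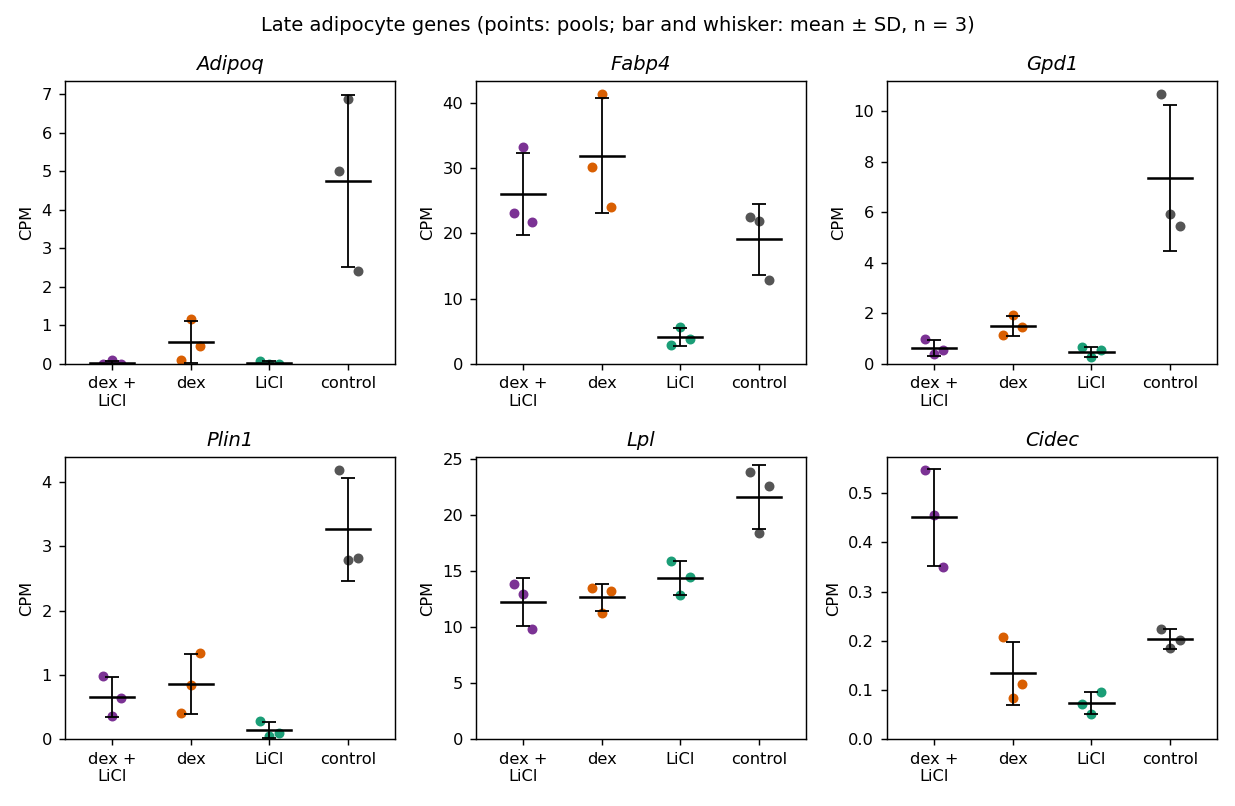
CPM of the 6 late adipocyte genes in each of 12 pools (y axis, linear from 0, a scale for each gene), by condition (x axis), points being pools and the bar and whisker the mean ± SD of 3. Control pools are highest for Adipoq, Gpd1, Plin1 and Lpl, whereas Fabp4 is low in the 3 LiCl pools alone (2.86 to 5.61 CPM).

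Adipoq and Gpd1 were called lower than control in every treatment, but since control libraries alone brought them past the filter these calls are not read against the share of all genes. Of the other 5 tested genes, 2 were higher with dexamethasone than in control (Cebpb and Cebpd), against 5.45% of all tested genes, and 1 was lower (Lpl), against 5.49%. With the replicate block Fabp4 was also called higher. With LiCl, 3 of the 5 were lower than in control (Cebpb, Fabp4 and Lpl), against 5.9%, and 0 of all 7 were higher by edgeR, also at an unadjusted p under 0.05 and by DESeq2, against 4.71%. Among all 7, dexamethasone + LiCl differed from dexamethasone in 1 gene, Cebpb, which was lower, against 4.78%, and in 2 with the replicate block, Adipoq being added. In the other direction 0 were higher, also at an unadjusted p under 0.05 and by DESeq2, against 3.82%. It was above LiCl in 3 (Cebpb, Cebpd and Fabp4), against 3.79%, and below in 0, also at an unadjusted p under 0.05 and by DESeq2, against 3.09%. Against control it was above in Cebpd, against 10.8%, with the replicate block also in Fabp4, and besides Adipoq and Gpd1 it was below in Lpl, against 11.8%. In the unfiltered fit Plin1 was lower in all 3 comparisons with control, where 4.11%, 3.98% and 7.49% of genes were lower with dexamethasone, LiCl and both. There Pparg was also lower with LiCl, and Plin1 was above LiCl with both agents, against 2.85%. In the 3 comparisons with control the same control pools are used, so the 3 sets of calls are not independent. The genes were also chosen with earlier results of these data known, which can by itself raise their calls above the shares of all genes. Here and below, the shares are given for scale, and an excess over them is not read as a result.

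The separation of pools was counted as well, for the same genes chosen with earlier results known, so the shares of all genes are again for scale only. Apart from Adipoq and Gpd1, whose pools lay below control in every treatment, 3 of 5 genes had all dexamethasone pools above control (Cebpb, Cebpd and Fabp4) and 1 had all below (Lpl), against 12.5% and 12.7% of all tested genes. With LiCl, 3 of the 5 had all pools below control, against 16.4%. Dexamethasone + LiCl lay below dexamethasone in all pools for 4 genes (Cebpb, Cebpd, Adipoq and Gpd1), against 14.4%, and of these Cebpb alone passed the edgeR test. For Adipoq the nearest pools of the 2 groups held 1 count each, so library size alone parted them. For Gpd1 the nearest pools held 9 and 11 counts. Dexamethasone + LiCl lay above LiCl for 3 genes, against 12.6%, and, apart from Adipoq and Gpd1, above control for 1 and below it for 1, against 18.7% and 18.6%.

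**Figure D3:**
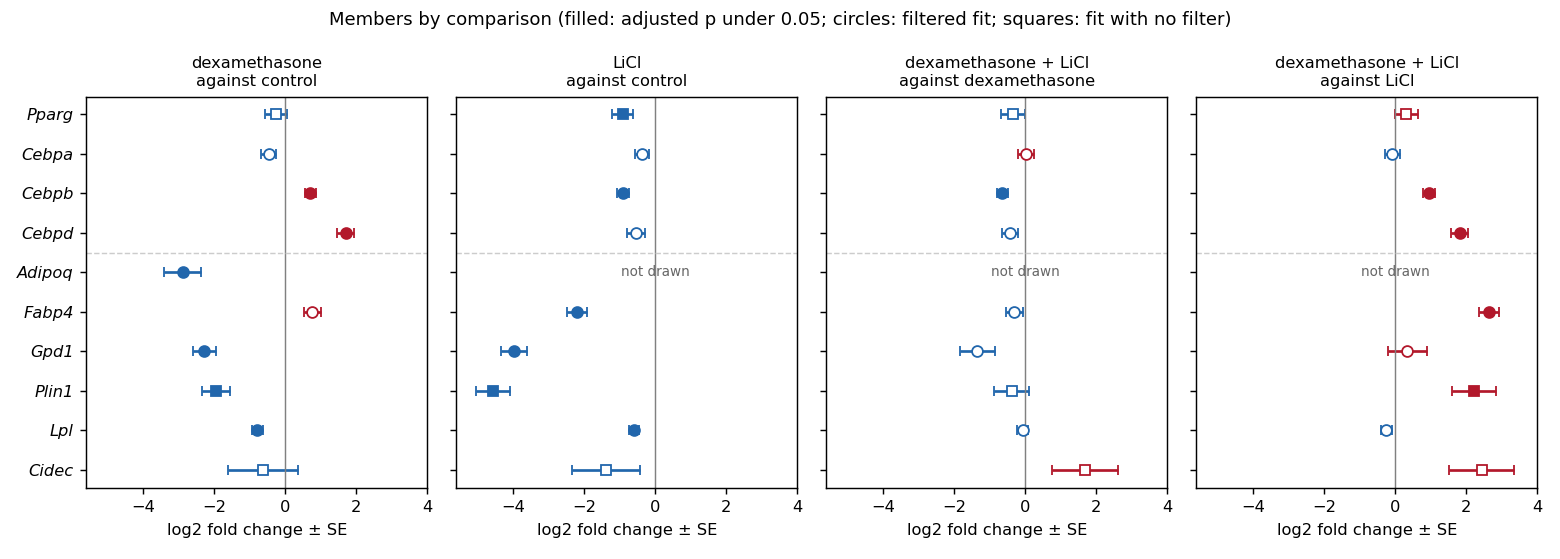
Log2 fold change ± SE (x axis) of each gene (rows, factors above the dashed line and late genes below) in 4 comparisons (panels), filled where the adjusted p is under 0.05, as circles from the filtered fit and squares from the fit with no filter. Cebpb and Cebpd lie right of 0 and Adipoq, Gpd1, Plin1 and Lpl left of it with dexamethasone, and no gene lies right of 0 with LiCl; Adipoq is not drawn where 1 group had 1 count.

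Whether dexamethasone acted differently in the presence of LiCl was tested as an interaction, the log2 effect of dexamethasone with LiCl minus that without it. By edgeR, 0 of the 7 tested genes passed, against 0.00794% of all tested genes. DESeq2 called 2 of the 7, and 25 of all tested genes. In edgeR 3 (Fabp4, Gpd1 and Lpl) had an unadjusted p under 0.05. The share of all genes at that unadjusted p was not counted, so these 3 are not read as a result. For Gpd1 the interaction was 2.62 (SE 0.67, edgeR adjusted p = 0.446, DESeq2 adjusted p = 0.0344). Adipoq and Gpd1 passed the filter through control libraries alone. Control values enter the interaction with a plus sign, so that selection favoured a positive value. Gpd1 also held only 22 counts in all with dexamethasone + LiCl and 25 with LiCl. For Fabp4 the interaction was 1.89 (SE 0.37), with an edgeR adjusted p of 0.229, 0.00475 with the replicate block and 0.00119 by DESeq2. Plin1, from the unfiltered fit, had 4.18 (SE 0.73, edgeR adjusted p = 7.83e-04, but 0.113 under edgeR's own filter), and 0.0764% of the genes in the unfiltered fit had a positive interaction that passed.

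Other late adipocyte genes were called in both directions. This list and those that follow were also chosen with earlier results of these data known, so the shares of all tested genes are for scale only. Of 33 further genes of lipid storage, fatty acid synthesis and adipocyte secretion, 18 were tested: with dexamethasone 3 were higher and 1 lower than in control, their median log2 change being -0.01, and with LiCl 2 were higher and 1 lower (median -0.10), where the median of all genes was 0.00 in both. Of all tested genes, 5.45% were higher and 5.49% lower with dexamethasone, and 4.71% and 5.9% with LiCl. With dexamethasone + LiCl, 7 were higher and 5 lower than in control (median -0.01), against 10.8% and 11.8% of all tested genes. Compared with dexamethasone, 4 were higher and 1 lower, against 3.82% and 4.78%. The 3 higher with dexamethasone were Slc2a4, the insulin-responsive glucose transporter (16.5 to 22.6 CPM in dexamethasone pools and 3.93 to 4.64 CPM in control pools, log2 fold change 2.25, SE 0.16), Lpin1, a phosphatidate phosphatase (1.60, SE 0.11), and Dgat2, the last enzyme of triglyceride synthesis (0.65, SE 0.12). The lower one was the droplet coat gene Plin2 (-0.55, SE 0.14), which most cells with lipid droplets make. With LiCl, the adipokine gene Cfd was lower (2.07 to 2.62 CPM in LiCl pools and 4.33 to 6.53 CPM in control pools, log2 fold change -1.29, SE 0.21, edgeR adjusted p = 0.00124), having passed the count filter through control libraries alone, and the malic enzyme gene Me1 higher (0.77, SE 0.13). Muscle also uses Slc2a4 and Lpin1, and liver Lpin1 and Dgat2. All 3 were again higher with dexamethasone + LiCl than with LiCl (log2 fold change 2.07, 1.53 and 0.79).

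Cd36 and Retn were under the count filter and were chosen after their values were seen. Cd36, a fatty acid transporter of fat cells, endothelium and macrophages, had 8, 16 and 21 counts with dexamethasone + LiCl, 21, 38 and 30 with dexamethasone, 2, 1 and 7 with LiCl and 40, 16 and 32 in control. These counts are a description, and the LiCl pools held the fewest. The adipokine gene Retn had 0, 1 and 2 counts with dexamethasone + LiCl, 1, 3 and 0 with dexamethasone, 0 in every LiCl pool and 6, 14 and 8 in control.

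Among 25 further adipogenic regulators, all tested, 5 were higher and 2 lower with dexamethasone than in control (median log2 fold change 0.02), and 1 was higher and 3 lower with LiCl (median -0.07). For this list and the next ones, 5.45% of all tested genes were higher and 5.49% lower with dexamethasone, and 4.71% and 5.9% with LiCl. Mlxipl passed the count filter through dexamethasone-treated libraries alone, so a higher value with dexamethasone was built in. Ppargc1b passed through control libraries alone, and Nr1h3 through LiCl and control libraries alone. A lower value with dexamethasone was built in for both. Zbtb16 (4.87, SE 0.23, with 60 counts or more in 7 libraries, of which 6 had received dexamethasone), Klf15 (2.26, SE 0.10) and Klf9 (1.68, SE 0.15), which are direct glucocorticoid targets in many cell types, had the smallest adjusted p with dexamethasone and also stood higher with dexamethasone + LiCl than with LiCl (3.79, 1.91 and 1.33). Lmo3, a glucocorticoid-responsive regulator of human fat precursors, was lower with dexamethasone (-1.22, SE 0.27) and with LiCl (-1.76, SE 0.26), but it too passed the count filter through control libraries alone. Zfp423, a determinant of the preadipocyte state in mice, was lower by 0.35 and 0.40 on the log2 scale. Of 21 tested inhibitors of adipogenesis, 3 were higher and 2 lower with dexamethasone (median 0.04) and 1 was higher and 4 lower with LiCl (median -0.22). Wnt10b passed the filter through LiCl and control libraries alone. Dlk1, the preadipocyte factor that holds cells before differentiation, stood at 943 to 1074 CPM in dexamethasone pools and 521 to 786 CPM in control pools (log2 fold change 0.67, SE 0.12, edgeR adjusted p = 0.00184). Wnt5a was the inhibitor that was higher with LiCl (0.32, SE 0.07). Of 15 tested genes of the marrow stromal cells from which marrow fat arises, 1 was higher and 5 lower with dexamethasone and 2 were higher and 5 lower with LiCl. Esm1 and Pi16 passed the filter through LiCl and control libraries alone. Vcam1 of the stromal list, an adhesion molecule also of endothelium, stood at 18.6 to 23.4 CPM in dexamethasone pools, 19.1 to 21.0 CPM in LiCl pools and 32.3 to 40.6 CPM in control pools. Of 5 tested brown and beige fat genes, 2 were higher and 1 lower with dexamethasone, and 1 was higher with LiCl.

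Markers of other cells moved along the same comparisons. Of 20 tested endothelial markers, 14 were lower and 1 higher with dexamethasone than in control (median log2 fold change -0.98), against 5.49% and 5.45% of all tested genes. With LiCl 3 were lower, against 5.9%. Gpihbp1 and Flt4 passed the count filter through control libraries alone. Flt1, Sox7 and Mmrn2 passed it through LiCl and control libraries alone. A lower value with dexamethasone was therefore built in for these genes, and for Gpihbp1 and Flt4 also with LiCl. Cdh5, the endothelial cadherin, stood at 21.0 to 25.2 CPM in dexamethasone pools and 54.5 to 56.9 CPM in control pools. The 23 endothelial markers summed to 226 to 236 CPM with dexamethasone + LiCl, 212 to 229 CPM with dexamethasone, 325 to 367 CPM with LiCl and 377 to 431 CPM in control. By group mean this sum was highest in control and lowest with dexamethasone, and Fabp4 was highest with dexamethasone and lowest with LiCl. The part of endothelium in the Fabp4 values was not tested.

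Of 14 tested macrophage markers, 6 were higher and 1 lower with dexamethasone than in control (median log2 fold change -0.13), against 5.45% and 5.49% of all tested genes. With LiCl 6 were lower (median -0.52), against 5.9%. With dexamethasone + LiCl 4 were higher and 6 lower than in control (median -0.49), against 10.8% and 11.8%. Aif1 passed the count filter through control libraries alone, so a lower value elsewhere was built in for it. The 17 markers summed to 207 to 245 CPM with dexamethasone + LiCl, 268 to 302 CPM with dexamethasone, 115 to 119 CPM with LiCl and 132 to 199 CPM in control. By group mean this sum, unlike the median of its genes, ran in the same order as Fabp4, Cebpb and Cebpd, and so did the sum of the epidermis markers given next. Within it, the complement gene C1qb stood at 37.1 to 48.2 CPM with dexamethasone and 6.05 to 12.7 CPM in control. The scavenger receptor gene Cd163, a glucocorticoid target that passed the filter through dexamethasone-treated libraries alone, stood at 12.4 to 17.9 CPM with dexamethasone and at most 0.0450 CPM in control. Cd68, a lysosomal marker, was lower with dexamethasone (14.8 to 19.2 CPM against 23.3 to 26.4 CPM). The part of endothelium and macrophages in the values of Fabp4, Cebpb, Cebpd, Lpl and Cd36 was not tested. In these bulk libraries fewer cells of a type and less RNA per cell cannot be told apart.

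Muscle and epidermis markers were also unequal. The 14 skeletal muscle markers summed to 193 to 246 CPM with dexamethasone + LiCl, 74.5 to 113 CPM with dexamethasone, 82.1 to 87.7 CPM with LiCl and 47.2 to 48.4 CPM in control. The 10 epidermis markers summed to 46.4 to 48.1 CPM with dexamethasone + LiCl, 60.7 to 63.2 CPM with dexamethasone, 24.6 to 26.1 CPM with LiCl and 25.9 to 31.1 CPM in control. The basal keratin gene Krt5 had 1 count in all 12 libraries. Their part in the results was not tested. The 15 tested chondrocyte markers had 1 call with dexamethasone, a higher one, and 3 lower ones with LiCl (median log2 fold change -0.01). Of 9 tested osteoblast markers, 1 was higher and 2 were lower with dexamethasone (median -0.04) and 2 were lower with LiCl (median -0.53). For both lists, 5.45% of all tested genes were higher and 5.49% lower with dexamethasone, and 5.9% were lower with LiCl.

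**Figure D4:**
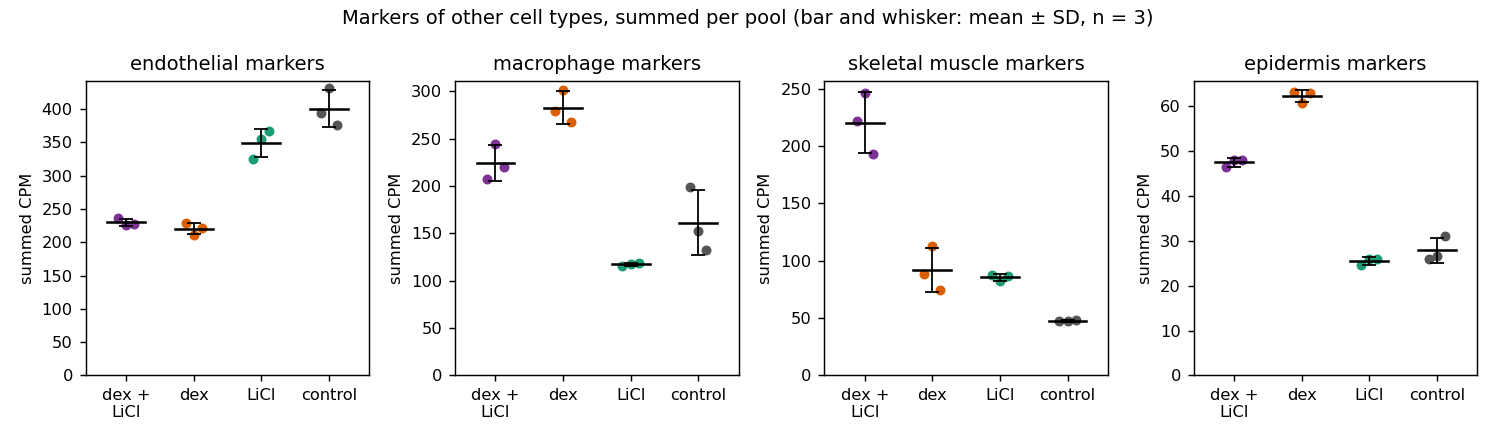
Summed CPM of endothelial, macrophage, skeletal muscle and epidermis markers (panels, y axis linear from 0) in each of 12 pools, by condition (x axis), with the mean ± SD of 3. The endothelial sum is low in both groups with dexamethasone (212 to 236 CPM), and the macrophage sum is lowest with LiCl (115 to 119 CPM).

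Over the 12 libraries, which share 4 conditions and so are no independent series of points, Pearson's r of log2 CPM was highest within 2 trios of the 7 tested genes. In the first, r was 0.94 for Adipoq and Gpd1, 0.77 for Gpd1 and Lpl and 0.70 for Adipoq and Lpl. In the second, r was 0.88 for Fabp4 and Cebpb, 0.83 for Fabp4 and Cebpd and 0.82 for Cebpb and Cebpd, while Adipoq ran with Cebpa at r = 0.57 and with Cebpd at r = -0.09. Among 12595 other genes, those most like Adipoq were Adamtsl2 (r = 0.94), Vstm2a (r = 0.94) and Mat2b (r = 0.93). Vstm2a, known in mice as a secreted protein of preadipocytes, averaged 2.40 ± 0.532 CPM with dexamethasone + LiCl, 5.93 ± 0.845 CPM with dexamethasone, 3.69 ± 0.128 CPM with LiCl and 12.9 ± 1.05 CPM in control (SD, n = 3 each).

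The genes most like Gpd1 were Dok5 (r = 0.95), Hs6st2 (r = 0.93) and the macrophage marker Cd68 (r = 0.92), and those most like Lpl were Enpp6 (r = 0.93), Mdga1 (r = 0.91) and Slit2 (r = 0.90). Those most like Fabp4 were the collagen crosslinking gene Lox (r = 0.95), Fam69a (r = 0.94) and Aldh1a2 (r = 0.94). For the factors they were C1qb (r = 0.98), C1qc (r = 0.97) and Spp1 (r = 0.97) for Cebpd, Ccdc3 (r = 0.98), Cdo1 (r = 0.96) and Nedd9 (r = 0.95) for Cebpb, and Vrk2 (r = 0.88), Pgm2 (r = 0.84) and Ppil3 (r = 0.82) for Cebpa. C1qb and C1qc are the complement genes of macrophages.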

How the data were processed

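RNA was sequenced from 12 pools of cultured fetal rat metatarsals. The authors aligned reads with Subread, removed duplicates with Picard, counted genes with HTSeq-count and merged technical replicates, and the deposited values are whole-number counts per gene and pool. The genome build in the submitters' processing notes is a human one although the libraries are rat, so the build of the counts is not settled and they carry no coordinates here. Removal of duplicates limits the counts of very abundant genes.

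CPM are counts over TMM-scaled library totals. Differential expression was tested with edgeR 4.0.16 in R 4.3.3 (TMM scaling, quasi-likelihood F test, 1 model with 4 conditions, Benjamini-Hochberg adjustment) on the 12602 genes with 60 counts or more in at least 2 libraries, the filter of the study, and on all 23569 genes with a count for members under it. The study tested with DESeq2, used here in version 1.42.0 as an alternative. Ratios resting on 3 or fewer counts are exact binomial ratios of summed counts over TMM-scaled library totals. Likeness is Pearson's r of log2 CPM with a prior count of 2. Other alternatives were another scaling, the replicate block, the compared groups alone, thinning, other filters, a fold minimum of 2 and leaving out each pool.

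The members and lists were chosen with earlier results of these data known. Named genes are the members, called list genes of smallest adjusted p, the 3 most alike genes per member and defining markers. The study describes 3 consecutive experiments and, for its ordination plot, pools that each came from 1 of 3 rats, and the labels number 3 replicates per condition without tying numbers to experiments or rats. Deviations of same-numbered pools from their group means had r from 0.03 to 0.17 for dexamethasone against control and from 0.13 to 0.50 in the other comparisons. Pairing belongs to the pools and would hold in every comparison or in none, and these values do not settle it. The model for the printed values has no block, since the study's methods name none, and blocked values are given where they change a call.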

Additional observations from a re-analysis of the deposited data

Results flagged for a closer look

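Plin1 had a difference between the effects of dexamethasone in the presence and in the absence of LiCl. Its log2 fold change was 2.23 for dexamethasone + LiCl against LiCl and -1.95 for dexamethasone against control, a difference of 4.18 (SE 0.73) with an adjusted p of 7.83e-04 in the unfiltered edgeR fit. The same difference had an adjusted p of 0.113 under edgeR's own filter, and it rests on 7 counts in the LiCl pools. Without LiCl pool 1 it was 4.93.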

How the results depend on the processing

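Of the 7 tested genes, 5 were called for dexamethasone against control and 5 for LiCl against control, and a fold minimum of 2 left 3 in each. All of these counts include Adipoq and Gpd1, which passed the filter through control libraries alone, so they only show how calls depend on the processing. Of all tested genes, 5.45% were higher and 5.49% lower with dexamethasone, and 4.71% and 5.9% with LiCl. The fold minimum left 358 and 199 of all tested genes in these comparisons. Dexamethasone + LiCl against dexamethasone had 1 call, which became 2 with DESeq2, 2 with the replicate block, 3 with no count filter and 0 with the fold minimum. Over all genes of each fit the calls were 1084 in the main test and, in the same order, 1346, 1581, 1383 and 172. The interaction had 0 calls, which became 2 with DESeq2, 1 with the replicate block and, with no count filter, 3 of all 10 genes, namely Fabp4, Gpd1 and Plin1. Over all genes of each fit the interaction had 1 call in the main test, 25 with DESeq2, 3 with the replicate block and 37 with no count filter. Plin1, which is not among the 7, also passed with DESeq2 (adjusted p = 0.00646) and in an edgeR fit with the replicate block (adjusted p = 4.97e-05). Leaving out each pool gave 4 to 6 calls for dexamethasone against control, 3 to 6 for LiCl against control, 0 to 2 for dexamethasone + LiCl against dexamethasone, 3 to 3 against LiCl, 3 to 4 against control and 0 to 0 for the interaction. The 3 calls for LiCl were those without the first control pool, where Adipoq dropped under the filter and Lpl lost its call. Blocking on the replicate number gave 6 calls in place of 5 for dexamethasone against control, Fabp4 being the added one (edgeR adjusted p = 0.00298). In the other comparisons and the interaction the block changed no call of the 7 tested genes beyond those of Adipoq and Fabp4 given with the results.

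Some directions turned. Cidec for dexamethasone against control was 0.021 after thinning. Without 1 pool the log2 fold change ranged from -0.52 to 0.068 for Pparg with dexamethasone against control, from -0.075 to 0.18 for Cebpa, -0.16 to 0.089 for Lpl and -0.70 to 0.0094 for Plin1 with dexamethasone + LiCl against dexamethasone, from -0.20 to 0.029 for Cebpa, -0.023 to 0.57 for Gpd1 and -1.69 to 2.05 for Adipoq, with 1 count in each group, against LiCl, from -0.029 to 0.15 for Cebpb against control, and from -0.091 to 0.42 for the interaction of Cebpd. None of these values was called. The cause was not tested. Over all genes, the calls for dexamethasone against control were 1379 in the main test and 905 in a fit of these groups alone. Those for LiCl against control were 1338 and fell to 701 to 823 without any 1 LiCl pool, and those for dexamethasone + LiCl against dexamethasone were 1084 and fell to between 587 and 665 without any pool of either group but dexamethasone pool 2. The shares of all genes printed for these comparisons rest on the full counts. Depth limits Pparg, Plin1 and Cidec, with at most 93 counts in a pool.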
